A study of Homo sapiens with 6 samples.

Results

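The transcripts of 10 genes of the G1 phase were followed in SW480 cells after depletion of RBM39. They are the cyclin genes CCND1, CCND3, CCNE1 and CCNE2, the kinase genes CDK2, CDK4 and CDK6, the inhibitor genes CDKN1A and CDKN1B, and the retinoblastoma gene RB1. They were chosen by name, with earlier results of these data known, and are 10 of the 56303 gene symbols in the count table. SW480 is a line from a human colon adenocarcinoma. Both groups carried a lentiviral hairpin and were selected with puromycin as stable lines: 3 libraries with a nonsilencing hairpin (shCtrl, labelled WT) and 3 with a hairpin against RBM39 (shRBM39, labelled RBM39 knockdown). RBM39 is an RNA-binding protein that takes part in splicing, and the study asked which transcripts depend on it. The study calls its stable lines clonal and names 3 replicate experiments per group, so differences between lines that do not come from the hairpin cannot be told apart from the knockdown.

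In G1, growth signals raise the D-type cyclins, which bind CDK4 or CDK6 and begin to phosphorylate the retinoblastoma protein. The E2F factors that this protein holds back are then released, and they switch on genes for DNA replication and the E-type cyclins, which bind CDK2 and carry the cell into S phase. The Cip/Kip inhibitors p21 (from CDKN1A) and p27 (from CDKN1B) restrain cyclin and CDK2 complexes, and the INK4 inhibitors bind CDK4 and CDK6. Colon cancers often drive this step through Wnt and RAS signalling, for which CCND1 is a well known target.

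The libraries held 18042924 to 20428901 counts. RBM39 itself had 441 ± 6.53 CPM (counts scaled to a common library size with TMM factors, which correct for the make-up of a library) in shCtrl and 278 ± 13.3 CPM in shRBM39 (SD, n = 3). Its log2 fold change was -0.67 (SE 0.04, edgeR adjusted p 1.24e-16), so the targeted mRNA was reduced but still present. Among markers of colorectal epithelium, all 7 were detected, with a summed 2679 to 2831 RPKM in shCtrl and 2983 to 3083 RPKM in shRBM39. Only KRT8 and KRT18 were higher without overlap, KRT18 at 922 to 985 RPKM in shCtrl and 1017 to 1060 RPKM in shRBM39. The groups overlapped for EPCAM and KRT19. CDH1, VIL1 and CDX2 were lower without overlap, VIL1 at 103 to 105 RPKM in shCtrl and 87.48 to 91.98 RPKM in shRBM39. Of the 7, CDX2 had the lowest level in shRBM39, at 1.08 to 1.29 RPKM against 5.38 to 5.71 RPKM in shCtrl. The fibroblast list (4 genes) summed to 0.607 to 0.62 RPKM in shCtrl and 0.81 to 1.05 RPKM in shRBM39, and the endothelial list (3 genes) to 0.44 to 0.597 and 0.761 to 0.93 RPKM. COL1A1 gave nearly all of the fibroblast sum, and COL1A2, COL3A1 and DCN had at most 3 counts in any library. Of the 3 leukocyte markers PTPRC was at 0 in all 6 libraries, CD3E had at most 1 count, and CD68 gave nearly all of the 7.04 to 7.69 RPKM of that list. Their part in the results was not tested.

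All 10 genes could be tested. As they were chosen with earlier results of these data known, the shares below describe the set and are no test of it. In shRBM39, 9 of them were called by the quasi-likelihood test of edgeR (adjusted p below 0.05), 8 higher and 1 lower, where 59.1% of all 18243 tested genes passed, 29.2% as higher and 29.9% as lower. The CPM of the 2 groups did not overlap for these 9, as for 63.3% of tested genes. Every cyclin and kinase gene of the set was among the higher ones, CDKN1B was the lower one, and RB1 was not called. The median log2 fold change of the 10 was 0.45 against -0.01 over all tested genes. The increase was at least 2-fold for 3 of the 10, namely CCND3, CCNE1 and CCNE2, where 2.36% of tested genes rose that much. In bulk RNA, more cells in one phase of the cycle and more mRNA per cell cannot be told apart.

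**Figure D1:**
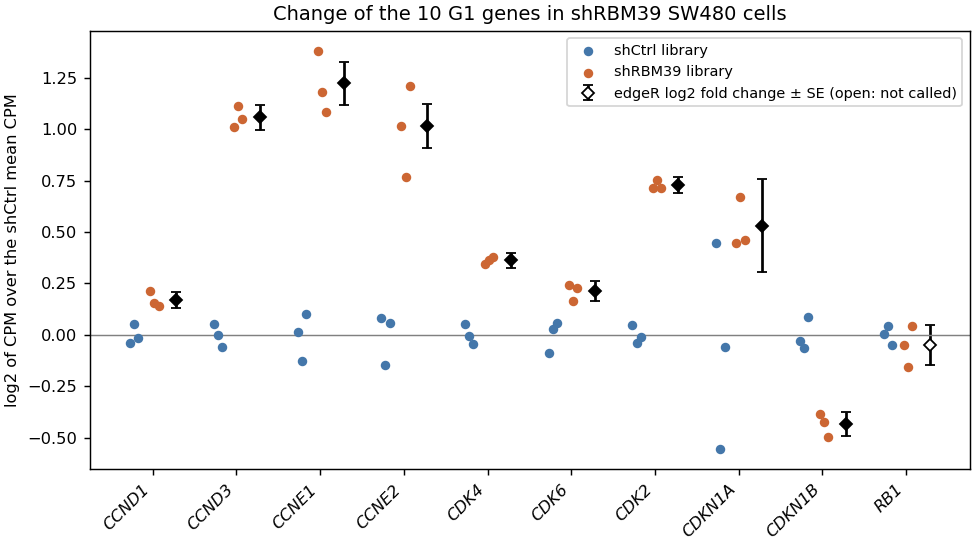
Change of the 10 genes. The y axis is the log2 of each library's CPM over the mean CPM of the shCtrl libraries, with 3 points per group, and diamonds give the edgeR log2 fold change with its SE (filled where the adjusted p was under 0.05). The CCND3, CCNE1, CCNE2 and CDK2 points of shRBM39 lie far above those of shCtrl, the CDKN1B points lie below, and the CDKN1A points of shCtrl spread widely.

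Promoter windows are shown for the members that rose most, CCNE1 and CCND3, and for the one that fell, since E-type cyclins are textbook E2F genes. RefSeq windows at the start of the canonical transcript were matched for 6 of the 10 genes. The 250 bases before the start site of CCNE1 (chr19:29811741-29811990, plus strand), CCND3 (chr6:41941809-41942058, minus strand) and CDKN1B (chr12:12717118-12717367, plus strand; all GRCh38.p14) read, with capitals for the E2F core letters TCCCGC or GCGGGA and for CCAAT or ATTGG:

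CCNE1: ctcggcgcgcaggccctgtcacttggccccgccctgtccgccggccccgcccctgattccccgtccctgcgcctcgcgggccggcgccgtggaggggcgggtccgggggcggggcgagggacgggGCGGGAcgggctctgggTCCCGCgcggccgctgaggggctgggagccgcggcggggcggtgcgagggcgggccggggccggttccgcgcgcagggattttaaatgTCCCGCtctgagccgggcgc

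CCND3: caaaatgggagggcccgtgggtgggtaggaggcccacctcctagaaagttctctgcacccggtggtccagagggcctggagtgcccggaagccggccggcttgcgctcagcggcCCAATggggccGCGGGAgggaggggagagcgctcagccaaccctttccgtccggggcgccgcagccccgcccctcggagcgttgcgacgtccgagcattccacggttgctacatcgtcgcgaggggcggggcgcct

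CDKN1B: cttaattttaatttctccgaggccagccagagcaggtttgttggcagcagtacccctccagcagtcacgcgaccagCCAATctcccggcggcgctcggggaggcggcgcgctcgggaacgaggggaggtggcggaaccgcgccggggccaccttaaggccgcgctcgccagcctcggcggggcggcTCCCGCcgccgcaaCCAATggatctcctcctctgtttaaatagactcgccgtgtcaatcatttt

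The E2F core was searched as TCCCGC on both strands, and was found in 23.5% of all 35116 windows of this length. It was present in 4 of the 6 matched members: 3 times in CCNE1, and once each in CCND3, CDKN1A and CDKN1B. In CCNE1 the matches began 125, 108 and 20 bases before the start site, and the first of them shares bases with a GC box. The longer E2F forms TTTCCCGC, TTTCGCGC, TTTGCCGC and TTTGGCGC were in none of the 6, and in 2.79% of all windows. CCAAT was found in CCND3 and CDKN1B, and in 32% of all windows. The GC box GGGCGG was in all 6 members, with 7 copies in CCNE1, and in 42.6% of all windows. The 6 windows were 64.4 to 81.2% G or C, and the E2F core and the GC box are themselves rich in these bases. The shares over all windows were not matched for base content, so an excess of these motifs cannot be read from them. The short core is in the windows of CCNE1, CCND3 and CDKN1A, called higher, and of CDKN1B, called lower. It is not in those of CDK4 and CDK6, called higher. No window was matched for CCND1, CCNE2, CDK2 and RB1. Whether these letters bear on any change was not tested.

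The levels of the genes were compared per length, as RPKM (counts divided by merged exon length and library total, without TMM scaling). In shCtrl, CDK4 (58.1 ± 1.53 RPKM) and CCND1 (53.2 ± 2.19 RPKM) were the highest, and ranked 810 and 896 of 18243 tested genes, where CDKN1A ranked 16276. CDK2 (32.1 ± 0.671 RPKM) and CDKN1B (12.7 ± 0.72 RPKM) followed. The remaining cyclins and CDK6 were low: CDK6 had 4.22 ± 0.258, CCND3 2.89 ± 0.0962, CCNE1 2.23 ± 0.173 and CCNE2 1.42 ± 0.113 RPKM (SD, n = 3). RB1, at 1.41 ± 0.05 RPKM, did not separate from CCNE2, and CDKN1A was last at 0.473 ± 0.157 RPKM. All other neighbours in this order had ranges that did not overlap. The order depends on the length used, in both groups. Merged exon length exceeded that of the canonical transcript unevenly: 5802 against 2026 bases for CCND3, 3894 against 2240 for CDK2, and 12260 against 11663 for CDK6. With canonical lengths the places of CCND3 and CDK6, and the shares and ratios of RPKM given below, would be different. In shRBM39, CDK2 would then also stand before CCND1, and CCND3 before CDKN1B.

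In shRBM39, by merged exon length, the first 4 places were the same. CDK4 was at 68.6 ± 0.741, CCND1 at 54.9 ± 1.56, CDK2 at 48.8 ± 0.605 and CDKN1B at 8.64 ± 0.345 RPKM. Below them CCND3 (5.53 ± 0.18 RPKM) and CCNE1 (4.77 ± 0.512 RPKM) stood before CDK6 (4.48 ± 0.136 RPKM), although the ranges of CCNE1 and CDK6 overlapped. CCNE2 (2.63 ± 0.403 RPKM) now lay clear of RB1 (1.25 ± 0.0895 RPKM), and CDKN1A was again last (0.628 ± 0.0543 RPKM).

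**Figure D2:**
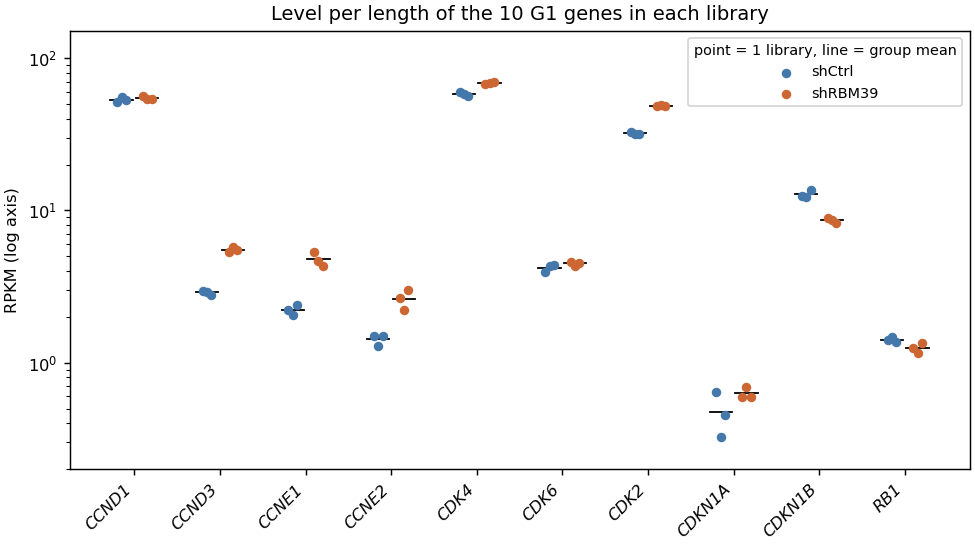
Level of the 10 genes per length. The y axis is RPKM on a log axis, each point is 1 library and each line a group mean of 3. CDK4, CCND1 and CDK2 lie between 31.5 and 69.3 RPKM, while CDKN1A stays under 0.7 RPKM in every library.

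The D-type cyclins, the sensors of growth signals, were compared first. CCND1 (chromosome 11, 69641156 to 69654474, 5 exons in its canonical GENCODE transcript, GRCh38) had 4841, 5432 and 4950 counts in shCtrl and 5594, 4728 and 5258 in shRBM39. On the CPM scale these were 240, 256 and 244 against 286, 275 and 271, so the groups did not overlap, by a small margin. The log2 fold change was 0.17 (SE 0.04, edgeR adjusted p 0.000241). This small difference depended on the scaling: in RPKM the groups overlapped, at 51.3, 55.6 and 52.7 against 56.7, 54.3 and 53.8, and under library totals alone the log2 fold change was 0.05 (edgeR adjusted p 0.302). Of the merged exon length of CCND1, 10.3% lies opposite exons of ORAOV1. That gene had 1653 to 2053 counts over the 6 libraries and a log2 fold change of 0.08 (edgeR adjusted p 0.137).

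CCND3 (chromosome 6, 41934934 to 42050357) encodes cyclin D3 and had 337, 342 and 314 counts in shCtrl against 636, 599 and 646 in shRBM39. Every shRBM39 library held more than every shCtrl library by a wide margin. Its log2 fold change was 1.06 (SE 0.06, edgeR adjusted p 2.18e-16), and it stayed between 0.75 and 1.09 in all 17 alternatives, called in each. The third D-type gene, CCND2, belongs to the list of other pathway genes and went the other way, with 300, 340 and 287 counts in shCtrl and 144, 144 and 138 in shRBM39. For CCND2 the log2 fold change was -0.98 (edgeR adjusted p 1.54e-11). Within a library, CCND1 made up 94.8 ± 0.278% of CCND1 plus CCND3 RPKM in shCtrl and 90.8 ± 0.46% in shRBM39 (SD, n = 3), with no overlap. The difference had an exact two-sided permutation p of 0.1, the smallest that 3 against 3 allows. With CCND2 included, a make-up chosen after the values were seen, CCND3 went from 4.96 ± 0.265% to 9.0 ± 0.442% of D-type RPKM, CCND2 went from 3.75 ± 0.146% to 1.66 ± 0.147%, and CCND1 remained the bulk at 89.3 ± 0.561% in shRBM39 (SD, n = 3).

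The E-type cyclins, partners of CDK2, both rose, and CCNE1 had the highest fold change of the 10 genes. CCNE1 (chromosome 19, 29811991 to 29824312, 12 exons) had 111, 106 and 119 counts in shCtrl and 278, 213 and 224 in shRBM39. No shRBM39 library came near a shCtrl library. Mean levels were 5.45 ± 0.434 CPM and 12.7 ± 1.34 CPM (SD, n = 3). The log2 fold change of CCNE1 was 1.22 (SE 0.10, edgeR adjusted p 2.06e-12). CCNE2 (chromosome 8, 94879770 to 94896678) had 128, 115 and 127 counts in shCtrl and 238, 176 and 269 in shRBM39. These groups were also apart, though shRBM39 replicate 2 was lower than the other two. The log2 fold change of CCNE2 was 1.02 (SE 0.11, edgeR adjusted p 4.86e-10). Of the merged exon length of CCNE2, 37% lies opposite exons of INTS8, which had 362 to 373 counts in shCtrl and 394 to 449 in shRBM39 and a log2 fold change of 0.35. How strand was treated in the counting is not stated, so reads of such shared stretches cannot be told apart. Both genes were called in all 17 alternatives, CCNE1 between 0.84 and 1.29 and CCNE2 between 0.58 and 1.12.

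CCNE1 took 59.9, 61.4 and 61.8% of E-type RPKM in shCtrl and 66.8, 67.6 and 58.9% in shRBM39. The shares overlapped, with a difference of 3.43 percentage points and an exact two-sided permutation p of 0.4, and leaving out shRBM39 replicate 3 took the difference to 6.19. The split between both E-type genes was therefore not shown to differ. Among 12057 other genes that averaged 5 CPM or more, the profiles nearest to CCNE1 over the 6 libraries (Euclidean distance of centred log2 CPM plus 0.5) were those of FAM111B, COPS8 and TFRC, at 0.166, 0.177 and 0.184. As the libraries form 2 groups, likeness here is mostly a like change between them: these genes had log2 fold changes of 1.06, 1.11 and 1.16.

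Among the kinases, CDK2, the partner of cyclins E and A, changed most. CDK2 (chromosome 12, 55966781 to 55972789, 7 exons) had 2497, 2481 and 2419 counts in shCtrl and 3859, 3478 and 3814 in shRBM39. Within each group the libraries lay close together, at 117 to 124 CPM and 197 to 202 CPM. Its log2 fold change was 0.73 (SE 0.04, edgeR adjusted p 9.34e-18), with 0.59 to 0.76 in the alternatives. A row of the table on the opposite strand, RP11-973D8.4, lies with all of its 565 bases opposite exons of CDK2. It had 2159 to 2223 counts in shCtrl and 3136 to 3437 in shRBM39, almost as many as CDK2 itself, and a log2 fold change of 0.73. Reads of both rows cannot be told apart without the strand, so both the level and the change of CDK2 are uncertain to that extent.

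The D-cyclin partner CDK4 (chromosome 12, 57747727 to 57756013, 8 exons) had 3689, 3731 and 3481 counts in shCtrl and 4392, 3916 and 4445 in shRBM39. In CPM the groups stood apart, at 171 to 183 against 224 to 229. The log2 fold change was 0.36 (SE 0.04, edgeR adjusted p 3.21e-10), and it was 0.24 under library totals alone and still called. TSPAN31 on the opposite strand covers 43.2% of the merged exon length of CDK4, and it rose by 0.30 on the log2 scale (edgeR adjusted p 1.85e-06).

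CDK6 (chromosome 7, 92604921 to 92836573), the other D-cyclin partner, had 939, 1073 and 1048 counts in shCtrl and 1149, 958 and 1125 in shRBM39. The raw counts overlapped, and the CPM values, 46.6 to 51.6 against 55.7 to 58.6, did not. Its log2 fold change of 0.21 (SE 0.05, edgeR adjusted p 0.000242) was 0.09 and not called under library totals alone (edgeR adjusted p 0.113). CDK4 accounted for 93.8, 93.1 and 92.8% of CDK4 plus CDK6 RPKM in shCtrl and 93.7, 94.1 and 93.9% in shRBM39, which overlapped (exact two-sided permutation p 0.2).

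The inhibitor CDKN1B went against the cyclins and kinases. CDKN1B (chromosome 12, 12685498 to 12722369), the gene of p27, had 679, 698 and 741 counts in shCtrl and 515, 440 and 471 in shRBM39. All 3 shRBM39 libraries lay below all shCtrl libraries. Its mean went from 34.3 ± 1.88 to 25.4 ± 0.996 CPM (SD, n = 3). Its log2 fold change was -0.44 (SE 0.06, edgeR adjusted p 7.13e-08). Scaling by library totals alone gave -0.56, and correcting the libraries for GC content and length gave -0.61. The ratio of CDKN1B to CDK2 in RPKM was 0.377, 0.39 and 0.424 in shCtrl and 0.185, 0.175 and 0.171 in shRBM39. This ratio needs no scaling between libraries, and its mean was lower by 55.4%, with an exact two-sided permutation p of 0.1, the smallest possible here. The rise of CDK2, by 0.73 on the log2 scale, is part of that fall, so the uncertainty of the CDK2 row carries over to the ratio.

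CDKN1A (chromosome 6, 36676460 to 36687337), the gene of p21 and a classic p53 target, was barely expressed. It had 38, 20 and 27 counts in shCtrl and 37, 38 and 37 in shRBM39. The counting error alone was wide, with an exact 95% Poisson interval of 12.2 to 30.9 for the 20 counts and 26.9 to 52.2 for the 38. In CPM the highest shCtrl library and the lowest shRBM39 library were both at 1.89, and in RPKM the groups overlapped, at 0.638, 0.324 and 0.456 against 0.594, 0.691 and 0.6. The log2 fold change was 0.53 (SE 0.23), with an edgeR adjusted p of 0.0435. The value depended on single shCtrl libraries: without replicate 2 it was 0.31 (edgeR adjusted p 0.266), and without replicate 1 it was 0.82 (edgeR adjusted p 0.00712). In all, 13 of 17 alternatives lost it, DESeq2 among them with an adjusted p of 0.132. The ratio of CDKN1A to CDK2 overlapped between the groups, 0.0103 to 0.0194 against 0.0122 to 0.0139 (exact two-sided permutation p 0.7).

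RB1 (chromosome 13, 48303744 to 48599436, 27 exons), whose protein is the substrate of these kinases, had 169, 183 and 164 counts in shCtrl and 158, 129 and 167 in shRBM39. The groups overlapped in CPM, at 8.07 to 8.62 and 7.49 to 8.62. In RPKM, without TMM scaling, they did not overlap, at 1.37 to 1.47 in shCtrl and 1.16 to 1.34 in shRBM39, and RB1 was not called on that scale either (limma adjusted p 0.137 with a pseudocount of 1, and 0.158 with 0.1). The log2 fold change was -0.05 (SE 0.10, edgeR adjusted p 0.681), and its 95% interval of -0.24 to 0.14 leaves room for modest changes in either direction. A difference of the size seen in CCND3 lies outside that interval. The RB1 row of the deposited tables ends at 48481986, before the end of the gene in GENCODE. Of the 27 canonical exons, 26 match an exon of that row exactly. Its merged exon length of 6169 bases exceeds the 4768 bases of the canonical transcript.

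**Figure D3:**
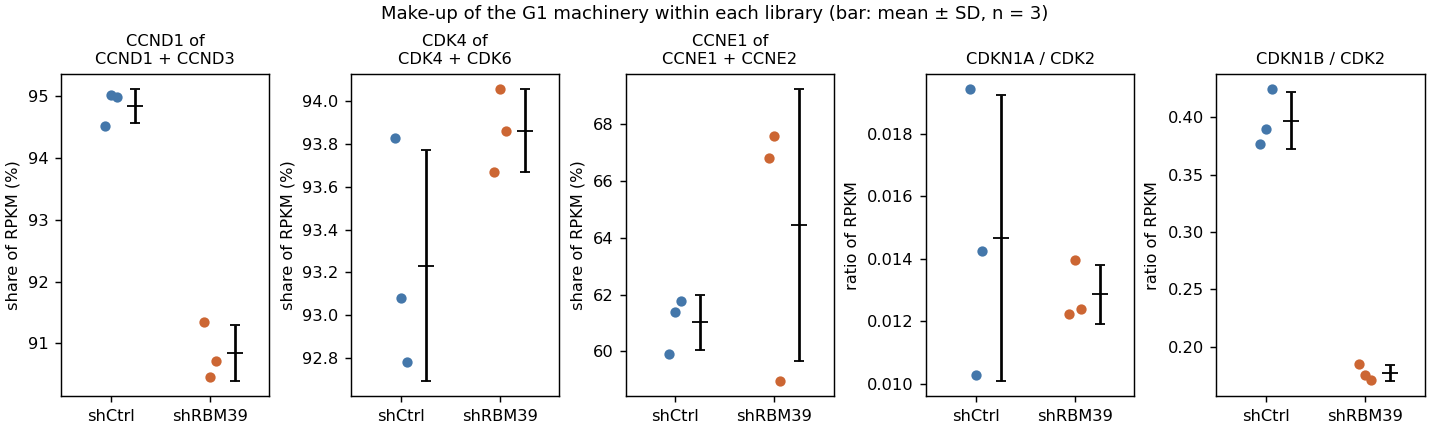
Make-up of the G1 genes within each library. Each panel gives a share of RPKM in percent or a ratio of RPKM, with 1 point per library and the mean with its SD beside it, and the y axes do not start at 0. CCND1 of CCND1 plus CCND3 and CDKN1B over CDK2 separate the groups, and the other 3 panels overlap.

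The 5 shares and ratios were adjusted as 1 family, which gave adjusted p of 0.25 for the CCND1 share and the CDKN1B ratio, 0.333 for the CDK4 share, 0.5 for the CCNE1 share and 0.7 for the CDKN1A ratio. None can reach 0.05 with 3 libraries a group. The genes opposite CCND1, CCNE2, CDK2 and CDK4 also leave uncertain the shares and ratios that these members enter.

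The other genes of the pathway were split in direction. Of 26 listed, all were tested and 20 were called, 11 higher and 9 lower, with a median log2 fold change of 0.06, beside 59.1% of all tested genes called, 29.2% as higher and 29.9% as lower. The highest were E2F8, an atypical E2F that represses transcription, at 1.41, CDC25A, the phosphatase that activates CDK2, at 1.06, the activator E2F1 at 0.95, and CCNA2, the S phase partner of CDK2, at 0.90 (edgeR adjusted p 3.44e-13 or less). Reads of CCNA2 overlap those of EXOSC9 over 9.08% of its length, and EXOSC9 rose by 0.78 on the log2 scale. The lowest were CDKN2B at -1.29, CCND2 at -0.98, TFDP2, a dimer partner of E2F, at -0.76, and RBL2, a relative of RB1, at -0.53 (edgeR adjusted p 5.71e-10 or less). RBL2 shares 9.85% of its length with RP11-44F14.7 on the opposite strand, at -0.47.

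The INK4 inhibitors of CDK4 and CDK6 were all lower, a group singled out after its values were seen. CDKN1C, the remaining CDK inhibitor gene of this list, was not called, at 0.11 (edgeR adjusted p 0.45), and its groups overlapped. CDKN2B, the gene of p15, went from 73.3 ± 1.72 to 30.1 ± 3.33 CPM and CDKN2A from 138 ± 3.03 to 110 ± 6.07 CPM (SD, n = 3). The log2 fold changes of CDKN2A, CDKN2C and CDKN2D were -0.34, -0.41 and -0.43, with edgeR adjusted p of 1.49e-08, 0.00243 and 0.00221. The groups overlapped for CDKN2C, with 8.39, 12.1 and 12.3 CPM in shCtrl and 8.88, 8.6 and 7.33 CPM in shRBM39. The row of CDKN2A joins the transcripts of p16 and of the overlapping reading frame ARF, which cannot be told apart here. SKP2, whose protein marks p27 for degradation, was named in the same way and rose by 0.84 (edgeR adjusted p 5.8e-13), from 18.2 ± 0.816 to 32.4 ± 2.98 CPM (SD, n = 3).

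Genes that E2F factors switch on for S phase moved in a single direction. Of 15 listed, 14 were called and all 14 were higher, where 29.2% of all tested genes were called as higher. This list and the other gene lists were chosen with earlier results of these data known, so such shares are descriptions only. Their median log2 fold change was 1.08. MCM6, a subunit of the replicative helicase, went from 50.4 ± 1.02 to 182 ± 7.01 CPM (SD, n = 3). That was a log2 fold change of 1.85 (edgeR adjusted p 1.5e-27). MCM5, PCNA and MCM4 followed at 1.34, 1.25 and 1.19 (edgeR adjusted p 8.86e-23 or less). CDT1, the licensing factor, was the exception, at -0.03 (edgeR adjusted p 0.649), and was called as lower under library totals alone, at -0.15. Of 8 genes of G2 and mitosis, 6 were called and higher (29.2% of all tested genes), with a median of 0.68, led by CCNB1 at 1.07, CDK1 at 0.96, AURKA at 0.91 and CCNB2 at 0.79 (edgeR adjusted p 1.82e-17 or less). CDC25B and CDC25C were not called, at 0.02 and 0.07.

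The p53 targets, set beside CDKN1A, did not share a direction. Of 20 listed, 14 were called, 7 higher and 7 lower, with a median log2 fold change of -0.14. A 70% share called is near the 59.1% of all tested genes (29.2% higher and 29.9% lower). FAS (1.36), PLK2 (1.30), PHLDA3 (0.68) and TIGAR (0.54) were the highest (edgeR adjusted p 0.000505 or less). BBC3 at -1.93, SESN2 at -1.10, GADD45A at -0.69 and BTG2 at -0.43 were the lowest (edgeR adjusted p 1.3e-07 or less). FAS was itself low, at 1.54 ± 0.0935 CPM in shCtrl (SD, n = 3).

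**Figure D4:**
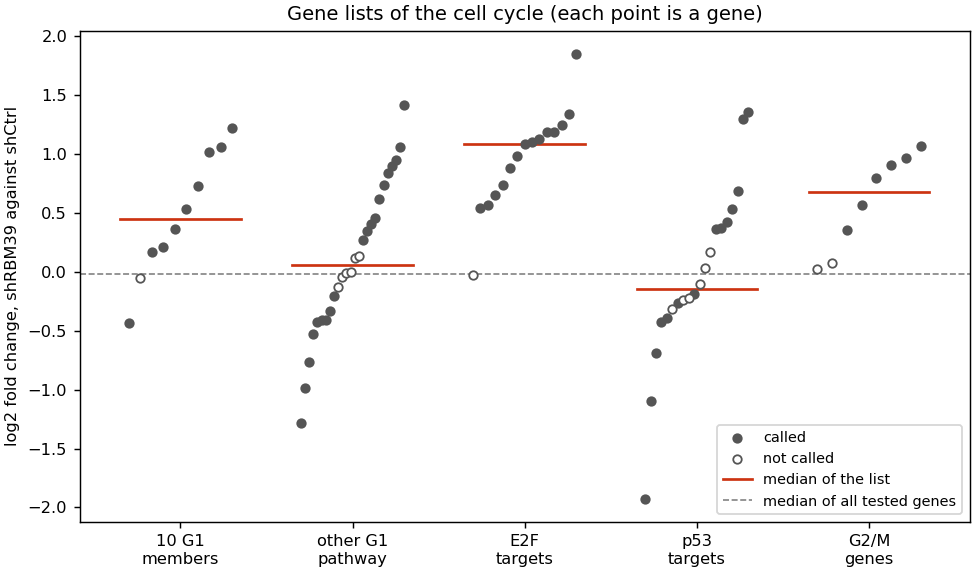
Log2 fold changes in shRBM39 of the 10 G1 genes and 4 further lists. Each point is a gene, filled where the adjusted p was under 0.05, red lines are list medians and the dashed line is the median of all tested genes. The E2F targets lie almost all above 0.5, and the other G1 pathway and p53 lists spread to both sides of 0.

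Splicing of the members was looked up in the authors' table of selected events. Of its 1582 records, 0 belonged to the 10 genes and 1 to the other pathway genes, a pair of mutually exclusive exons of TFDP2. The table is a selection of events, so a gene without a record may still be spliced differently. For TFDP2 the authors' table gave levels of the first form of 1, 0.906 and 0.79 in its group 1 and 0.683, 0.574 and 0.922 in its group 2, recomputed here from 9 to 18 reads each. The groups overlapped, and the table does not say which is the knockdown.

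The calls of the 10 genes were recounted under other ways of processing. DESeq2 called 8 of the 10 (49.8% of all genes), upper-quartile scaling 8 (59.5%), the correction for GC content and length 8 (60.6%), and the fit with a replicate block 9 (59.3%). In each of those with 8, CDKN1A was the gene lost. Scaling by library totals alone called 6 (61.1%), as did limma on log2(RPKM + 1) (57.6%) and on log2(RPKM + 0.1) (57.7%), with CCND1, CDK6 and CDKN1A lost. Without a filter 9 were called (32.4% of 33685 symbols), and with at least 10 counts in every library also 9 (61.4% of 16743). Leaving out shCtrl replicate 1, 2 or 3 left 9, 8 and 8 called (55.0%, 54.6% and 54.8% of all genes). Leaving out shRBM39 replicate 1, 2 or 3 left 8 each time (54.7%, 54.5% and 55.0%). Asking for a log2 fold change beyond 0.5 left 4 called (12.2%), namely CCND3, CCNE1, CCNE2 and CDK2.

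**Figure D5:**
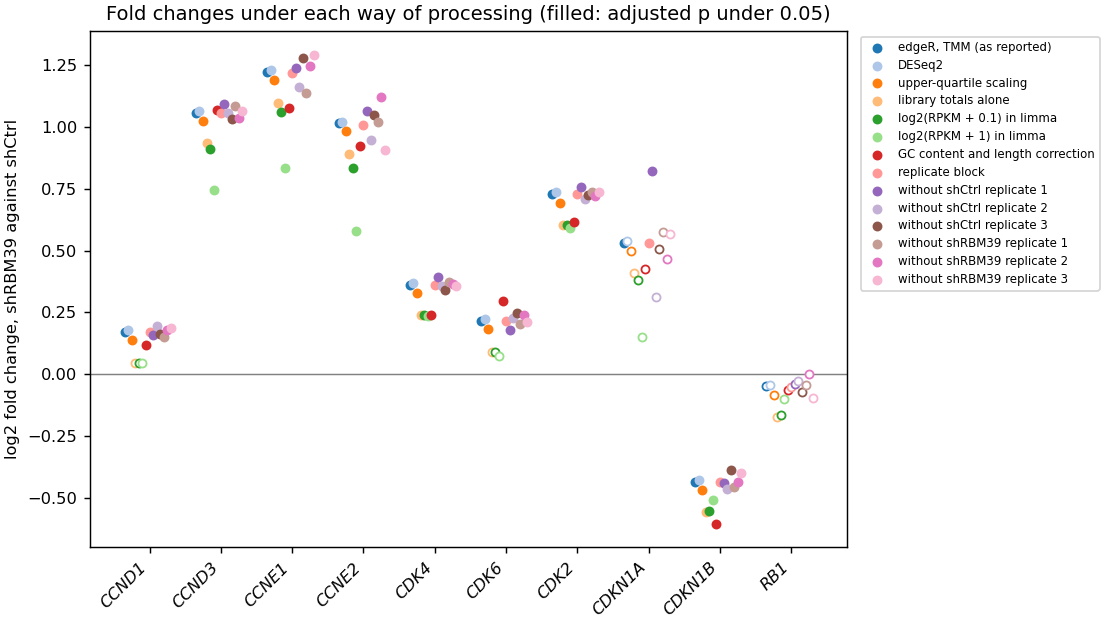
Log2 fold changes of the 10 genes under 14 ways of processing, from the reported fit to the leaving out of each library in turn. Points are filled where the adjusted p was under 0.05. CCND3, CCNE1, CCNE2, CDK2, CDK4 and CDKN1B are filled throughout, CCND1 and CDK6 are open under scalings by library totals, and most CDKN1A points are open.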

How the data were processed

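mRNA of 6 SW480 libraries was sequenced by the study from a stranded library kit. Groups and replicate numbers came from the sample titles, and columns named NC were read as shCtrl. Raw counts by gene symbol were deposited by the authors, as were RPKM values, which the counts and lengths gave back with a largest relative difference of 1.21e-13. The submitters' processing notes list Trimmomatic 0.36, STAR 2.5.3a, featureCounts of Subread 1.5.1, edgeR 3.12.1 and GRCh38. The annotation release and the treatment of strand, shared reads and molecular identifiers are not given in the sources used here, which affects overlapping genes and paralogs most. Columns of the authors' own p-values and differences in the splicing table were not used.

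Counts were tested with edgeR 4.0.16 in R 4.3.3 (filterByExpr, TMM, quasi-likelihood, no covariate beside group) with Benjamini-Hochberg adjustment over all 18243 genes. p-values measure the spread between libraries, which may be partly technical. The SE was derived from the fold change and its F statistic. Chi-square per degree of freedom between replicates was 2.11 to 4.21, so no library was a copy. Also run were upper-quartile scaling, DESeq2 1.42.0, scaling by totals, no filter, at least 10 counts in every library, limma 3.58.1 on log2(RPKM + 1) and log2(RPKM + 0.1), the replicate block, each library left out, a threshold of 0.01, a minimum log2 fold change of 0.5, and a correction for GC content and length. Scripts were tested on simulated counts. The limit for recovered genes was lowered there for DESeq2 and the minimum-fold test after both fell short of the first limit. The simulated minimum-fold test used a smaller log2 fold change than 0.5. Named genes were the members, the 4 highest and 4 lowest called genes of each list (mean of 1 CPM or more), the targeted gene, the 3 nearest profiles and splicing records of members or pathway genes. CDKN1C, CDKN2A, CDKN2C, CDKN2D, SKP2, CDT1, CDC25B and CDC25C were named after their values were seen. The members and lists were chosen with earlier results of these data known. Promoters are from RefSeq (GRCh38.p14). Intervals cover counting error only where called Poisson.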

Additional observations from a re-analysis of the deposited data

How the results depend on the processing

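The called direction of CCND3, CCNE1, CCNE2 and CDK2 held in all 17 alternatives tried. CDK4 and CDKN1B lost their calls only against a log2 fold change of 0.5. CCND1 and CDK6 also lost theirs under library totals and both log2 RPKM fits, which left 6 of the 10 called. Scaling by library totals moved the median of all tested genes by -0.12, and 33.9% of calls were then higher, against 49.4% with TMM. The test against 0.5 called 4 of the 10 members, 10 of the other G1 pathway genes and 5 of the p53 targets, as it asks for a larger difference. With 1 library left out RB1 ranged from -0.098 to 0.0011, the latter without shRBM39 replicate 2, and was never called. CDT1 was called as lower under library totals (-0.15) and both RPKM fits. With counts in place of RPKM, which weigh genes by length, the difference was -4.67 points for the CCND1 share, 1.73 points for the CDK4 share and -0.159 for the ratio of CDKN1B to CDK2. With 1 library left out, 8 to 9 members were called, beside 54.5 to 55.0% of all tested genes. The CCND1 share then differed by -4.25 to -3.8 points, the CDK4 share by 0.406 to 0.929 points, the CCNE1 share by 1.86 to 6.19 points, the CDKN1A ratio by -0.00398 to 0.000588 (the change of sign came without shCtrl replicate 1), and the CDKN1B ratio by -0.23 to -0.206. Same-numbered libraries did not deviate together (correlations of 0.0061, -0.046 and 0.037), nor did every library correlate best with its own number, so the numbers were not read as pairs. With the replicate block 9 members were called, beside 10810 (59.3%) of all tested genes. Depth limits CDKN1A, with 20 to 38 counts.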
